A study of Homo sapiens with 6 samples.

Results

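Eph receptors and ephrins were examined in UM-SCC1 cells, a long-established line grown from a human squamous cell carcinoma of the head and neck, which received either control mimics or miR-204-5p mimics. The genes were taken by name: 10 of the 14959 genes of the deposited table, namely the receptors EPHA1, EPHA2, EPHA4, EPHB2, EPHB3 and EPHB4 and the ligands EFNA1, EFNA5, EFNB1 and EFNB2. All 10 were listed, and the rule uses names only, although the list was drawn up with earlier results of these data known. Mimics are synthetic RNA duplexes; the active strand enters the silencing machinery like the mature miRNA, and the control mimics went through the same transfection. Each group had 3 libraries of total RNA from independent experiments, collected 48 h after transfection. UM-SCC1 is one line, so p-values measure the spread between its transfected cultures.

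Eph receptors form the largest family of receptor tyrosine kinases, and their ligands, the ephrins, are themselves tethered to the membrane of the neighbouring cell. EphA receptors mostly bind ephrin-A ligands, which hang on a lipid anchor, and EphB receptors mostly bind ephrin-B ligands, which span the membrane. Binding sends a forward signal through the receptor kinase and a reverse signal into the ligand-bearing cell, and in squamous epithelium these contacts govern cell sorting, boundaries, adhesion and migration.

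The mature miRNAs are shown first because the seed, bases 2 to 8 (capitals), decides which messages they pair with. In the RefSeq table (GRCh38.p14), 2 of 2370 human mature miRNAs had the seed of miR-204-5p, which is encoded on the minus strand at chr9:70810031-70810052.
miR-204-5p: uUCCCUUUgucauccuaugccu
miR-211-5p: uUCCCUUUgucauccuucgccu

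Matches to this seed were sought along the transcribed strand of the longest 3'UTR that GENCODE 29 annotates for each gene. An 8mer is AAAGGGAA, a 7mer-m8 is AAAGGGA (the 8mer less its final A), a 7mer-A1 is AAGGGAA (the 8mer less its first A), and a 6mer is AAGGGA alone, each match being counted under its longest form. Of 14649 genes of the table with a 3'UTR, 8.6% had an 8mer, 9.83% a 7mer-m8 as the longest match, 8.66% a 7mer-A1 and 12.3% a 6mer. A match of 7 bases or more was present in 27.1% of genes and in 5 of the 10 listed genes. EPHB2 and EPHA4, which have been named elsewhere as miR-204 targets, each had an 8mer. EFNA5 also had an 8mer, EPHA1 a 7mer-m8 and EFNB2 a pair of 7mer-A1. The 3'UTRs of EPHA2, EPHB3, EPHB4, EFNA1 and EFNB1 held none of these letters, not even the 6mer. These 3'UTRs had 787 to 2325 bases. Those with a match had 7630 (EPHB2), 4366 (EFNA5), 3343 (EPHA4), 3309 (EFNB2) and 345 (EPHA1) bases. The shares were not adjusted for length. The matches are printed below along the transcript with the seed match in capitals (GRCh38), so that each can be set beside the change of its gene.
EPHB2, 7mer-m8, chr1:22914860-22914866, plus strand: gactgttgatgAAAGGGAcagattgaggag
EPHB2, 8mer, chr1:22915996-22916003, plus strand: gcctgagctgcAAAGGGAAggaagggatta
EPHA4, 8mer, chr2:221425427-221425434, minus strand: ggcctggaaagAAAGGGAAagtggatttaa
EFNA5, 8mer, chr5:107380068-107380075, minus strand: ttgggagggctAAAGGGAAatttggaaata
EPHA1, 7mer-m8, chr7:143391276-143391282, minus strand: tctttgttttaAAAGGGAggtgggggtaga
EFNB2, 7mer-A1, chr13:106492722-106492728, minus strand: ctgcagaagccAAGGGAAgacagtggtttg
EFNB2, 7mer-A1, chr13:106490950-106490956, minus strand: ttctgaattggAAGGGAAaaaaaatgtagc

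The matches of EPHB2 lie in exon 17 of a transcript whose 3'UTR runs for 7630 bases, 990 and 2126 bases after the stop codon. The transcript that the deposited table lists for EPHB2 has 7 exons and 1709 bases and ends upstream of both, so its own 3'UTR of 116 bases has no match. For EPHA4, EFNA5, EPHA1 and EFNB2 the listed transcript is the one that carries the matches.

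**Figure D1:**
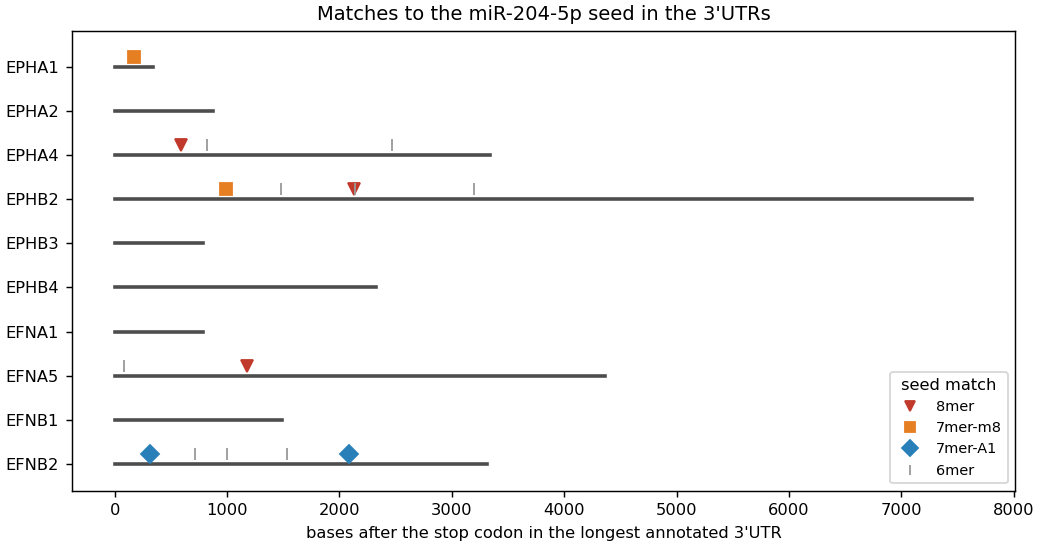
Longest annotated 3'UTR of each listed gene, drawn to scale in bases after the stop codon (x axis), with seed matches above the line by type. The 3'UTRs run from 345 bases in EPHA1 to 7630 in EPHB2, and only EPHB2, EPHA4 and EFNA5 carry the red triangle of an 8mer.

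The values are FPKM, fragments scaled to transcript length and to the mapped total by the authors, so that levels of different genes can be compared per length. The file gives no counts. Among low values of genes with 1 annotated transcript, 29% to 32.2% were whole multiples of the best step (within 0.02 of a whole number). The median over the steps considered was 2.77% to 3.18%. The smallest steps, which would mean greater depth, were left out of the search. The best step put the depth at 13.1 to 16.4 M fragments per library, overlapping between groups. On the listed transcript lengths this corresponds to about 1530 to 2096 fragments for EFNA1, 21.7 to 86.9 for EPHB2 and 5.9 to 21.9 for EPHA4, and these figures are rough where a gene has several transcripts. Spearman's correlation across genes, which are not independent replicates, was 0.990 to 0.991 within groups and 0.973 to 0.976 between them. All 8 squamous markers looked for were present, KRT5, KRT14 and TP63 among them, with summed levels of 917 to 995 FPKM with miR-204-5p mimics and 1030 to 1050 with control mimics. Endothelial markers summed to 0.590 to 0.767 FPKM with miR-204-5p mimics and 0.443 to 0.502 with control mimics. Leukocyte markers summed to 9.92 to 12.1 FPKM, and fibroblast markers to 9.81 to 11.5 FPKM with miR-204-5p mimics and 8.58 to 9.31 with control mimics, and the part of these differences in the results was not tested. By limma, 4 of the 8 squamous markers passed as lower and 3 as higher. Of the others, 2 of 3 fibroblast ones and 1 of 3 endothelial ones passed as higher. Among leukocyte markers 0 of 3 passed (0 of 3 at an unadjusted p under 0.05). The fibroblast ones that passed, COL1A2 and PDGFRB, had means under 1 FPKM, as did PTPRC and CD3E. COL1A1 and CD68, at 1 FPKM or more, did not pass (adjusted p by limma 0.149 and 0.174). The lower squamous ones included TP63, KRT14 and KRT5, with log2 fold changes of -1.01, -0.51 and -0.43. The 3 higher squamous ones were KRT6A, ITGB4 and SFN, with log2 fold changes of 0.81, 0.30 and 0.26. Of all genes, 40.8% passed. DCN, COL3A1 and KDR were not listed.

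Of the 10 genes, 6 passed the test, with 5 lower (EPHB2, EPHB4, EPHB3, EFNA1 and EPHA4) and 1 higher (EPHA2) with miR-204-5p mimics. The test was limma on log2(FPKM + 1) over all genes, two-sided, with an adjusted p under 0.05. Of all genes tested, 40.8% passed it, 16.8% lower and 23.9% higher. The median log2 fold change was -0.14 over the 10 genes and 0.03 over all genes. No library of one group reached into the FPKM range of the other for 7 of the 10, 6 of them lower with miR-204-5p mimics, against 53.6% of all genes. A gene whose libraries do not overlap has a two-sided exact permutation p of 0.1, the smallest that 3 against 3 can give. In a bulk sample, fewer cells expressing a gene and less RNA per cell cannot be told apart.

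**Figure D2:**
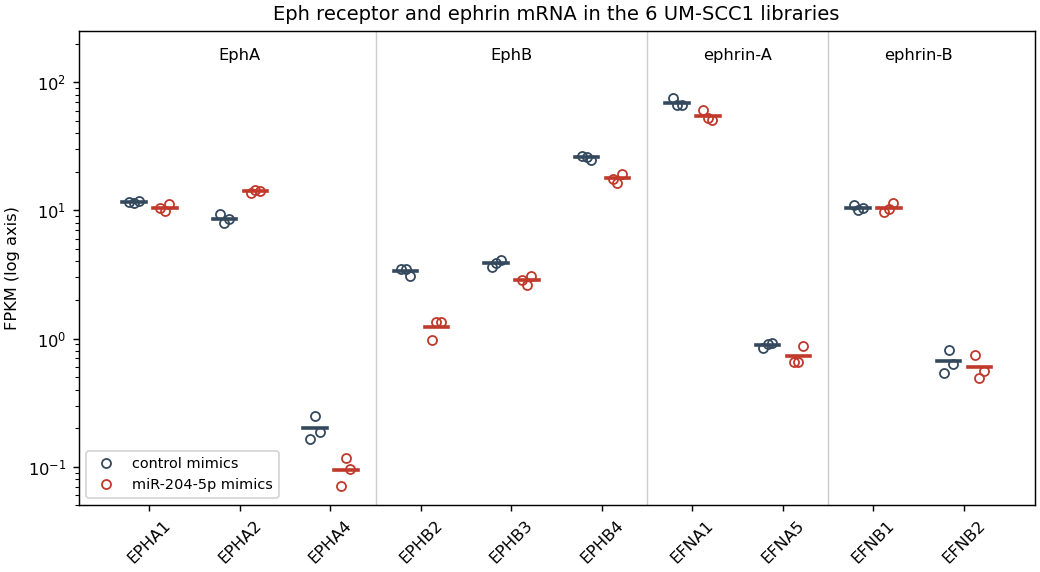
FPKM (log axis) of the 10 listed genes in each library, circles for libraries and bars for group means, n = 3 per group. The 3 EphB receptors are lower in each library transfected with miR-204-5p mimics, with EPHB2 at 0.973 to 1.36 against 3.10 to 3.50 FPKM, while EPHA2 is higher in every one.

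All 3 listed EphB receptors fell. EPHB2 (ENSG00000133216, plus strand, chr1:22710839-22891265 as listed), a receptor for ephrin-B ligands known for its part in cell positioning in epithelia, showed the greatest difference of the 10. With miR-204-5p mimics it measured 0.973, 1.35 and 1.36 FPKM, and with control mimics 3.46, 3.50 and 3.10 FPKM. Every control library was more than 2 times as high as any library with miR-204-5p mimics. The group means were 1.23 ± 0.220 and 3.35 ± 0.222 FPKM (SD, n = 3), so the mean fell by 63.4%. On the log2(FPKM + 1) scale the fold change was -0.97 ± 0.0908 (SE, adjusted p by limma 0.000444), which understates the change at this low level, since the log2 ratio of the mean FPKM was -1.45. The call held under all 12 alternatives, with limma adjusted p-values from 0.000298 to 0.00469.

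EPHB4 (ENSG00000196411, minus strand, chr7:100802565-100827115), the receptor that pairs with ephrin-B2 and is best known from the venous side of vessels, was the most abundant Eph receptor of these cells. It measured 17.6, 16.3 and 19.4 FPKM with miR-204-5p mimics and 26.8, 26.1 and 24.9 FPKM with control mimics. The groups were well apart, the lowest control library lying above the highest library with miR-204-5p mimics. From 25.9 ± 0.959 the mean fell by 31.4% to 17.8 ± 1.53 FPKM (± SD, 3 libraries each), giving a log2 fold change of -0.52 ± 0.0668 (SE, adjusted p by limma 0.00142). In GENCODE 29, SLC12A9 is annotated on the opposite strand across part of EPHB4. SLC12A9 had a log2 fold change of 0.07 (adjusted p by limma 0.456).

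EPHB3 (ENSG00000182580, plus strand, chr3:184561784-184582409), a close relative of EPHB2 with overlapping roles in epithelia, was 2.86, 2.64 and 3.07 FPKM with miR-204-5p mimics. With control mimics it was 3.63, 3.91 and 4.10 FPKM. The groups did not overlap, although the highest library with miR-204-5p mimics and the lowest control library were close. The mean fell by 26.5%, with a log2 fold change of -0.34 ± 0.0714 (SE, adjusted p by limma 0.00989). With control mimics EPHB2 and EPHB3 were at nearly the same level, the ratio EPHB2 over EPHB3 being 0.868 ± 0.102 (SD, n = 3), and with miR-204-5p mimics that ratio was 0.432 ± 0.0865. The transcript listed for EPHB2 has 1709 bases and that for EPHB3 has 4236. How transcripts were combined per gene is not given, so the level of EPHB2 against EPHB3 is uncertain. The calls of EPHB3 and EPHB4 held under all 12 alternatives.

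EphA receptors differed from each other. EPHA2 (ENSG00000142627, minus strand, chr1:16124337-16156087), the EphA receptor that is prominent in keratinocytes and carcinomas and a partner of ephrin-A1, was the only listed gene to rise. It measured 13.8, 14.4 and 14.1 FPKM with miR-204-5p mimics and 9.44, 7.92 and 8.55 FPKM with control mimics. Libraries with miR-204-5p mimics were tightly grouped and all above the controls. The mean rose from 8.64 ± 0.768 to 14.1 ± 0.314 FPKM (± SD, 3 libraries each), 63.4% higher, a log2 fold change of 0.65 ± 0.0665 (SE, adjusted p by limma 0.000607) that passed under all 12 alternatives.

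EPHA1 (ENSG00000146904, minus strand, chr7:143391112-143408892), an epithelial EphA receptor, was at 10.4, 9.84 and 11.2 FPKM with miR-204-5p mimics and 11.7, 11.4 and 11.8 FPKM with control mimics. The groups did not overlap but came close, and the difference did not pass (log2 fold change -0.14, 95% interval -0.27 to -0.0068, adjusted p by limma 0.0884). Without miR-204-5p mimics replicate 3 it passed, with a limma adjusted p of 0.0426. EPHA2 was below EPHA1 in every control library and above it in all 3 libraries with miR-204-5p mimics, the ratio EPHA2 over EPHA1 being 0.743 ± 0.0605 and 1.35 ± 0.101 (SD, n = 3). EPHA1, EPHA2, EPHB2 and EFNB2 each have an antisense gene annotated across part of them, and EPHA4 has a pseudogene on the opposite strand. Whether the counting used strand is not given in the sources used here.

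EPHA4 (ENSG00000116106, minus strand, chr2:221418029-221572290), a receptor unusual in binding ligands of both ephrin classes, rested on few fragments, 5.9 to 21.9 per library by the estimate above. It was at 0.0708, 0.118 and 0.0966 FPKM with miR-204-5p mimics and 0.163, 0.248 and 0.187 FPKM with control mimics. Every control library was above every library with miR-204-5p mimics, and the mean fell by 52.3%. The log2 fold change was -0.13 ± 0.0426 with a pseudocount of 1 (SE, adjusted p by limma 0.0491) and -0.61 with a pseudocount of 0.1 (adjusted p by limma 0.0429). The call was lost under 8 of 11 alternatives, with limma adjusted p-values from 0.0559 to 0.130, and every library left out in turn was among them.

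Among the ephrin-A ligands, EFNA1 (ENSG00000169242, plus strand, chr1:155127460-155134857), the main ligand of EPHA2 in epithelia, had the highest level of the 10 genes. Its FPKM was 60.8, 52.9 and 51.1 with miR-204-5p mimics and 75.3, 66.4 and 66.3 with control mimics. The groups did not overlap, and the mean fell by 20.8%, with a log2 fold change of -0.33 ± 0.0804 (SE, adjusted p by limma 0.0173). The call was lost without miR-204-5p mimics replicate 2 (adjusted p by limma 0.0604) and without replicate 3 of that group (adjusted p by limma 0.0527). EPHA2 and its ligand EFNA1 thus moved in opposite directions.

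EFNA5 (ENSG00000184349, minus strand, chr5:107376889-107427514), a ligand best known from axon guidance, was at 0.654, 0.654 and 0.876 FPKM with miR-204-5p mimics and 0.841, 0.901 and 0.929 FPKM with control mimics. Replicate 3 with miR-204-5p mimics lay within the control range. The difference did not pass (log2 fold change -0.13, 95% interval -0.29 to 0.026, adjusted p by limma 0.159), although it did without that library (adjusted p by limma 0.0397) and after quantile normalization (adjusted p by limma 0.0430).

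Neither ephrin-B ligand passed. EFNB1 (ENSG00000090776, plus strand, chrX:68828997-68842147), which acts in boundary formation and craniofacial development, was at 9.77, 10.2 and 11.4 FPKM with miR-204-5p mimics and 11.04, 10.03 and 10.5 FPKM with control mimics. The ranges overlapped almost entirely, with a log2 fold change of -0.01 (95% interval -0.18 to 0.15, adjusted p by limma 0.921). EFNB2 (ENSG00000125266, minus strand, chr13:106489731-106535114), the arterial partner of EPHB4, was at 0.741, 0.492 and 0.556 FPKM and at 0.541, 0.813 and 0.635 FPKM in the same order of groups. These ranges overlapped too, with a log2 fold change of -0.06 (95% interval -0.26 to 0.14, adjusted p by limma 0.621).

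The changes can be set beside the seed matches. Of the 5 genes with a match of 7 bases or more, EPHB2 and EPHA4 were lower and EPHA1, EFNA5 and EFNB2 did not pass. Of the 5 genes without any match, EPHB3, EPHB4 and EFNA1 were lower, EPHA2 was higher and EFNB1 did not pass. The next shares are of genes that passed as lower, among all genes with a mean of 1 FPKM or more. They were 40.6% of 961 with an 8mer, 30.2% of 1132 with a 7mer-m8 and 26.8% of 991 with a 7mer-A1. With a 6mer the share was 21.4% of 1442, and without a match 14.5% of 6872. EPHA4, EFNA5 and EFNB2 had means under 1 FPKM and were not among the genes of these shares. The counts over the 10 genes are a description, too few to set against these shares, and a match is not evidence of binding.

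**Figure D3:**
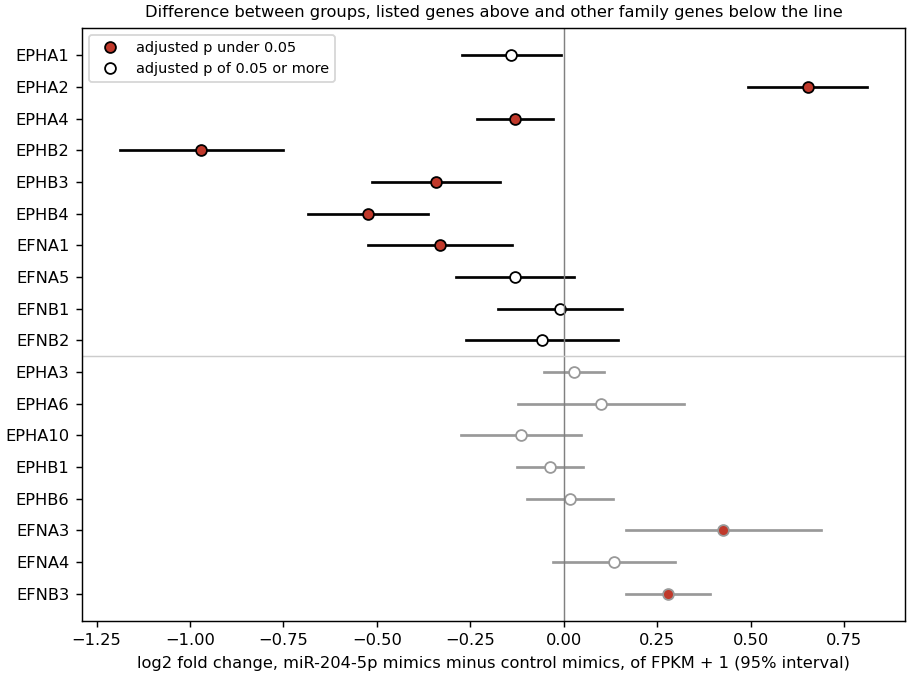
Log2 fold change of FPKM + 1, miR-204-5p mimics minus control mimics (x axis), with 95% intervals from limma, for the 10 listed genes above the line and 8 other family genes below it; filled points have an adjusted p under 0.05. EPHB2 lies farthest to the left at -0.97 and EPHA2 farthest to the right at 0.65.

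The human family has 22 genes by the list used here, and 18 were in the table. EPHA5, EPHA7, EPHA8 and EFNA2 were not listed in it. Of the 8 other family genes that were, 2 passed, EFNA3 and EFNB3, both higher, or 25% against the 40.8% of all genes. EFNA3, a further ephrin-A ligand, was at 10.1, 8.20 and 9.77 FPKM with miR-204-5p mimics and 7.20, 5.75 and 7.22 FPKM with control mimics. The groups did not overlap (log2 fold change 0.43, adjusted p by limma 0.0207), and the call was lost without miR-204-5p mimics replicate 1 (adjusted p by limma 0.0663) or replicate 3 (adjusted p by limma 0.0645). EFNB3, another ephrin-B ligand, rose from 0.652 ± 0.0176 to 1.0043 ± 0.0528 FPKM (± SD, 3 libraries each; log2 fold change 0.28, adjusted p by limma 0.00411). Matches of 7 bases or more were present in the longest 3'UTR of 5 of the 8 other family genes, an 8mer in EFNB3, EPHA10, EPHB1 and EPHB6 and a 7mer-A1 in EFNA3, and EPHA3, EPHA6 and EFNA4 had none. The transcripts listed for EPHA10 and EPHB1 have no 3'UTR. The matches of EFNB3 and EFNA3 are printed because these are the other family genes that passed.
EFNB3, 8mer, chr17:7711313-7711320, plus strand: gttttactgtaAAAGGGAAatttgaacaac
EFNA3, 7mer-A1, chr1:155086615-155086621, plus strand: ttggcctctccAAGGGAAgcctagtgggcc

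EFNA4, at 10.6, 9.18 and 10.5 against 8.98, 9.53 and 8.85 FPKM, overlapped between groups (log2 fold change 0.13, adjusted p by limma 0.166), and passed without miR-204-5p mimics replicate 2 (adjusted p by limma 0.0486). EFNA4, EFNA3 and EFNA1 are neighbours on the plus strand of chromosome 1, with 9318 bases between the first pair and 39921 between the second as listed. EFNA3 was higher and EFNA1 lower with miR-204-5p mimics, and the ratio EFNA1 over EFNA3 was 10.4 ± 1.18 with control mimics and 5.89 ± 0.613 with miR-204-5p mimics (SD, n = 3). A readthrough gene on the same strand, AL691442.1, overlaps EFNA4 and EFNA3, so reads may be shared, and AL691442.1 was listed at 0 to 0.596 FPKM. The remaining receptors EPHA3, EPHA6, EPHA10, EPHB1 and EPHB6 were at 0 to 0.737 FPKM, and none passed by limma, nor had an unadjusted p under 0.05 (0 of 5). EPHB6, at 0.0427 and 0.0312 FPKM on average with miR-204-5p and control mimics, was listed at 0 in control mimics replicate 2. EPHB1 was at 0.0266 ± 0.0163 with miR-204-5p mimics and 0.0530 ± 0.0289 FPKM with control mimics (SD, n = 3). By the rough estimate above, these values rest on 0.1 to 0.8 fragments per library for EPHB1 and 0 to 6 for EPHB6. EPHA10, at 0.120 ± 0.0363 against 0.214 ± 0.0987 FPKM (SD, n = 3), did pass without control mimics replicate 1 (adjusted p by limma 0.0368).

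Summed over the genes of the table, EphB receptors were at 21.5, 20.4 and 23.9 FPKM with miR-204-5p mimics and 33.9, 33.6 and 32.3 FPKM with control mimics. EphA receptors were at 25.04, 25.3 and 26.2 FPKM with miR-204-5p mimics and 22.1, 20.2 and 21.5 FPKM with control mimics. The EphB sum was thus above the EphA sum in every control library and below it in all 3 libraries with miR-204-5p mimics. EPHB4 made up 78.0% ± 0.877 of the EphB sum with control mimics and 81.1% ± 1.02 with miR-204-5p mimics, while the share of EPHB2 was 10.1% ± 0.427 and 5.61% ± 1.05 (SD, n = 3). Since EPHB2 is listed with a short transcript, its share of the EphB sum is uncertain. In the EphA sum the share of EPHA2 was 40.5% ± 1.90 with control mimics and 55.3% ± 1.58 with miR-204-5p mimics. The ratio EPHB4 over EPHA2, the leading receptors of each class in the treated cells, was 2.84, 3.30 and 2.91 with control mimics and 1.28, 1.13 and 1.37 with miR-204-5p mimics.

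**Figure D4:**
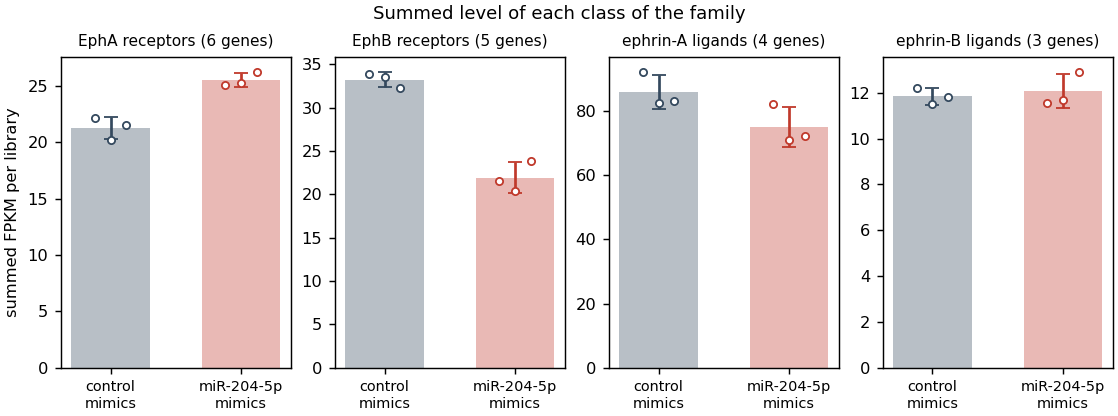
Summed FPKM per library (y axis, from 0) of EphA receptors, EphB receptors, ephrin-A ligands and ephrin-B ligands; bars are group means, error bars the SD and circles the libraries, n = 3 per group. Mean EphB sums are 33.3 FPKM with control mimics and 21.9 with miR-204-5p mimics, mean EphA sums 21.3 and 25.5, while ephrin-B sums overlap.

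Ephrin-A ligands summed to 82.2, 70.9 and 72.3 FPKM with miR-204-5p mimics and 92.3, 82.6 and 83.3 FPKM with control mimics, and EFNA1 made up 73.1% ± 2.07 and 80.5% ± 0.984 of them. Ephrin-B ligands summed to 12.1 ± 0.743 and 11.8 ± 0.353 FPKM, with overlapping groups and EFNB1 at 86.7% ± 1.95 and 88.9% ± 1.62 of the sum. By mean FPKM with control mimics the 10 genes ran EFNA1, EPHB4, EPHA1, EFNB1, EPHA2, EPHB3, EPHB2, EFNA5, EFNB2 and EPHA4, and no neighbours in this order overlapped in range. With miR-204-5p mimics EPHA2 ranked 3, ahead of EPHA1 and EFNB1, whose ranges overlapped, and EFNA5 and EFNB2 overlapped as well.

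Genes on both sides of the signal moved in either direction, and the shares that passed were near that of all genes. Of 34 cytoplasmic partners of Eph receptors in the table, 10 passed as lower and 5 as higher, or 44.1% against the 40.8% of all genes. Their median log2 fold change was -0.02 against 0.03. VAV3, which acts downstream of Eph receptors, was at 7.96, 8.39 and 8.21 FPKM with miR-204-5p mimics and 14.5, 15.3 and 15.4 FPKM with control mimics (log2 fold change -0.80, adjusted p by limma 9.72e-05). The adaptor CRKL was at 29.9, 31.3 and 31.8 against 56.3, 52.6 and 52.3 FPKM (log2 fold change -0.78, adjusted p by limma 9.58e-05). Both groups of libraries were far apart for each gene. FYN, a Src family kinase that phosphorylates ephrin-B tails and acts beside Eph receptors, rose from 3.45 ± 0.0853 to 4.87 ± 0.456 FPKM (± SD, 3 libraries each; log2 fold change 0.40, adjusted p by limma 0.00582), and the adaptor GRB2 from 30.8 ± 1.04 to 35.6 ± 1.39 FPKM (log2 fold change 0.20, adjusted p by limma 0.0119). The count of 15 dropped to 8 without miR-204-5p mimics replicate 1 and to 9 without control mimics replicate 2 or replicate 3.

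Of 13 genes that act on ephrin-B tails or end the signal, 4 passed as lower and 2 as higher. That was 46.2% against the 40.8% of all genes. The median log2 fold change was -0.08 against 0.03 over all genes. MMP14, a membrane-anchored protease that can cleave EphA2, fell from 169.7 ± 4.71 to 114 ± 3.56 FPKM (± SD, 3 libraries each; log2 fold change -0.57, adjusted p by limma 0.000163). PTPN13, a phosphatase that binds ephrin-B tails through a PDZ domain, fell from 23.1 ± 0.997 to 15.3 ± 0.506 FPKM (log2 fold change -0.56, adjusted p by limma 0.000325). The phosphatases PTPN1 and ACP1, which act on Eph receptors, rose, with log2 fold changes of 0.28 (adjusted p by limma 0.00661) and 0.23 (adjusted p by limma 0.0307). The call of ACP1 was lost under 6 of 12 alternatives (limma adjusted p-values from 0.0516 to 0.0881): with the replicate number as a block and without any 1 library other than miR-204-5p mimics replicate 3. The fit with the block gave 3 calls in place of these 6.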

How the data were processed

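RNA from UM-SCC1 cells, 3 libraries per group, was sequenced by the authors (TruSeq, HiSeq X). The deposited table gives FPKM per gene and library, computed by the authors; the submitters' processing notes name HISAT2, StringTie and hg38, without versions, and the step from transcripts to genes is not given in the sources used here. It holds no counts, so alternatives that need counts were not run. Columns with the authors' own log2 ratios, p-values and FDR were not used. The table's length column is that of 1 listed transcript per gene (14946 of 14959 found in GENCODE 29).

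Groups were compared with limma 3.58.1 under R 4.3.3, its trend option for eBayes switched on, applied to log2(FPKM + 1), unfiltered and unscaled, two-sided, with Benjamini-Hochberg adjustment over all 14959 genes; the function was tested on simulated data. Seed matches came from GENCODE 29 transcript sequences and RefSeq miRNAs. Other steps used Python 3.11.15, pandas 2.3.3 and scipy 1.17.1. Named genes were the 10 listed, the other family genes in the table, the markers, and per signalling list the 2 largest changes each way with adjusted p under 0.05, a mean of 1 FPKM or more and no overlap; SLC12A9 and AL691442.1 were added after their values were seen, because they overlap listed or family genes. The genes and lists were chosen with earlier results of these data known. Alternatives were a pseudocount of 0.1, a mean FPKM of at least 1, a replicate block, no trend, equal medians, quantile normalization and leaving out each library.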

Additional observations from a re-analysis of the deposited data

How the results depend on the processing

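Over the listed genes, 100 of 117 refits kept direction and side of the threshold, and 10 of the others were losses of the calls of EPHA4 and EFNA1. The number of listed genes called was 4 to 7 over the 12 alternatives. The count of other family genes called was 1 with genes under a mean of 1 FPKM removed, where EFNB3 was not tested, and 1 to 3 with a library left out. Forward signalling genes called numbered 8 to 11 with a library left out. The direction turned for 4 genes that did not pass, whose log2 fold changes with a library left out ranged from -0.069 to 0.033 for EFNB1, from -0.12 to 0.0052 for EFNB2, from -0.00030 to 0.16 for EPHA6 and from -0.019 to 0.047 for EPHB6. Deviations from the group means correlated at -0.11 to -0.021 between same-numbered libraries and at -0.069 to 0.11 between unlike-numbered ones. With 3 libraries per group these correlations cannot show whether the numbers pair the libraries. With the replicate block 5096 genes were called in place of 6098, and 3 reverse signalling and turnover genes in place of 6; the cause was not tested. Depth limits EPHA4 and the family receptors below 1 FPKM, and DESeq2 alternatives need counts and were not run. Matches of 7 bases or more in the 3'UTR of the listed transcript were found in 4 of the 10 genes in place of 5, since the one listed for EPHB2 is shorter. Of 12627 genes whose listed transcript has a 3'UTR, 23.8% had such a match.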
